A study of Mus musculus with 3 samples.

Results

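Primitive erythroid cells were described in 3 droplet single-cell RNA libraries of mouse forelimb buds at embryonic day 9.5, as a cell population that a limb bud receives with its blood supply. Members were chosen by measured values, their globin, endothelial and mesenchymal UMIs, so those levels are given as descriptions. A barcode was a member when it held at least 500 genes, under 10% mitochondrial UMIs (unique molecular identifiers, which count captured RNA molecules), at least 2% UMIs of the embryonic globin genes Hba-x, Hbb-y and Hbb-bh1, and under 1 UMI in 10000 of the endothelial genes Cdh5, Pecam1 and Emcn and, separately, of the limb mesenchyme genes Prrx1, Tbx5 and Twist1. The rule found 1649 members among 22501 deposited barcodes, of which 12581 passed the gene and mitochondrial limits. The libraries labelled mutant were Esco2fl/fl;Prrx1-CreTg/0, in which Prrx1-Cre, a transgene driven by a Prrx1 limb enhancer, removes the floxed part of Esco2 (a cohesin acetyltransferase) from limb mesenchyme. The library labelled control was Esco2fl/fl without Cre, so that by the labels all 3 libraries carried the floxed allele and differed by the transgene. Their shares of Xist-only cells differed too, as given below. The 2 mutant libraries and the 1 control library were analysed here, although the design text speaks of 3 replicates of each genotype. By the design text, each replicate pooled the limb buds of 3 embryo samples, 2 of them male and 1 female, after trypsin digestion and freezing. Blood cells are outside the lineage that Prrx1-Cre is known for, and the labels name mesenchymal limb buds as the cell type.

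Primitive erythroid cells arise in the yolk sac, enter the circulation while still nucleated and mature there as a cohort. Mouse primitive cells use the embryonic beta-like genes Hbb-y and Hbb-bh1 and the embryonic alpha-like gene Hba-x, and as they mature Hbb-bh1 and Hba-x give way to Hbb-y and to the adult alpha genes Hba-a1 and Hba-a2. The adult beta genes Hbb-bs and Hbb-bt are the main beta genes of definitive red cells, which are made later in the fetal liver. The transcription factor Klf1 acts on the adult beta promoters through a CACCC element, with a CCAAT element and a TATA element nearer the start.

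The promoters of the beta genes are shown because the ratio of Hbb-bs and Hbb-bt to Hbb-y and Hbb-bh1 is followed below; Hbb-bh1 is named only. The 3 stretches are the last 120 bases before the RefSeq start in GRCm38.p6, all on the minus strand, at chr7:103853208-103853327 for Hbb-y, chr7:103827929-103828048 for Hbb-bs and chr7:103813924-103814043 for Hbb-bt. Capitals mark the long Klf1-type motif CCACACCC, its core CACCC (which the long motif contains), the CAAT box motif CCAAT and the TATA motif TATAA, searched for on both strands.
Hbb-y: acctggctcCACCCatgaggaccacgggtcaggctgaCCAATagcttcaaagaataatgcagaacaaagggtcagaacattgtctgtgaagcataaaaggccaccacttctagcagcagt
Hbb-bs: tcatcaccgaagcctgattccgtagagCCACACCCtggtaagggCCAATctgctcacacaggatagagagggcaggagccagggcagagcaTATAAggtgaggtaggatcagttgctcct
Hbb-bt: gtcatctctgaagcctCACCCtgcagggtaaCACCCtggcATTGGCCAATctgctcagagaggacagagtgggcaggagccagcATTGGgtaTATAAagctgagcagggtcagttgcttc

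Hbb-bs held the longer CCACACCC, which stood in this window of 1.84% of 32851 RefSeq promoters, and Hbb-y and Hbb-bt did not. All 3 held CACCC, found in 31.7% of promoters, and CCAAT, found in 21.3%. TATAA, found in 11.8% of promoters, was present in Hbb-bs and Hbb-bt. The Hbb-bs and Hbb-bt stretches had 91 identical letters of 118 aligned (77.1%). RefSeq gave a promoter for 9 of the 10 haemoglobin genes in the count tables.

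The members were erythroid by markers the rule had not used. Slc4a1, the band 3 anion exchanger of the red cell membrane, stood at 355 and 400 CPM (the usual UMI count scaled to a fixed total, over all UMIs of a class and library) in the mutant libraries and 486 CPM in the control. Alas2, the erythroid enzyme that starts haem synthesis, stood at 491 and 540 CPM in the mutants and 563 CPM in the control. In mesenchyme of the same libraries, taken as barcodes with at least 3 Prrx1, Tbx5 and Twist1 UMIs in 10000, under 2% embryonic globin and under 1 endothelial UMI in 10000, Slc4a1 stayed between 0.93 and 1.23 CPM and Alas2 between 3.21 and 5.34 CPM. After each barcode of at least 10000 UMIs was thinned to 10000, Slc4a1 was detected in 582 of 603 members of mutant 1, 433 of 445 of mutant 2 and 390 of 392 of the control, against 0.906%, 1.29% and 0.962% of mesenchyme barcodes at the same depth. Median depth before thinning was 63060.5, 58289 and 68337 UMIs in members of mutant 1, mutant 2 and the control, and 29900, 48382 and 24506.5 UMIs in mesenchyme. Unthinned, 95.2% and 96.3% of mutant members and 81.3% of control members had a Slc4a1 UMI.

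Of 17 genes listed for blood progenitors, 3 reached 5 CPM on average in members, and transcription factors of committed erythroid cells were higher. Among the progenitor genes, Runx1, a factor of early blood formation, stood at 18.6 and 16.5 CPM in mutant members and 18.9 CPM in control members, Itga2b, an integrin of early blood cells and platelets, at 10.7 and 14.3 CPM against 14.2 CPM, and Meis1, a homeobox factor, at 5.44 and 6.24 CPM against 3.72 CPM. Kit, the stem cell factor receptor of early progenitors, stood at 0.237 and 0.514 CPM in mutant members and 0.175 CPM in control members, and Myb, a factor of definitive progenitors, at 0.189 and 0.147 CPM against 0.0997 CPM. Klf1 stood at 150 and 158 CPM in mutant members and 158 CPM in control members. Gata1, the main erythroid GATA factor, stood at 72.8 and 74.1 CPM against 75.2 CPM. Epor, the erythropoietin receptor, stood at 88.7 and 105 CPM in the mutants and 113 CPM in the control. None of Klf1, Gata1 and Epor passed the test of mutant against control below.

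The members did not form a pure population at the low edge of the rule. Of the members, 596 in mutant 1, 448 in mutant 2 and 395 in the control had at least 20% embryonic globin. Between 2 and 5% lay 18 members of mutant 1, 13 of mutant 2 and 56 of the control, with medians of 974.5, 889 and 849.5 UMIs. In that band the barcodes together held 0, 24 and 3 Slc4a1 UMIs, and summed limb mesenchyme markers reached 1568, 896 and 1182 CPM, against 22.8, 24.5 and 11.9 CPM above 20% globin. Just inside the limit, between 2 and 2.5%, were 5, 10 and 28 barcodes, and just outside, between 1.5 and 2%, were 20, 13 and 46 that met the other limits. Members above 20% globin had Slc4a1 at 353 and 397 CPM in the mutants and 479 CPM in the control. Markers thus bore out the label above 20% globin, and below 5% they rested on few UMIs. Without members under 10000 UMIs the summed globin ratios below moved by under 0.1 points.

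**Figure D1:**
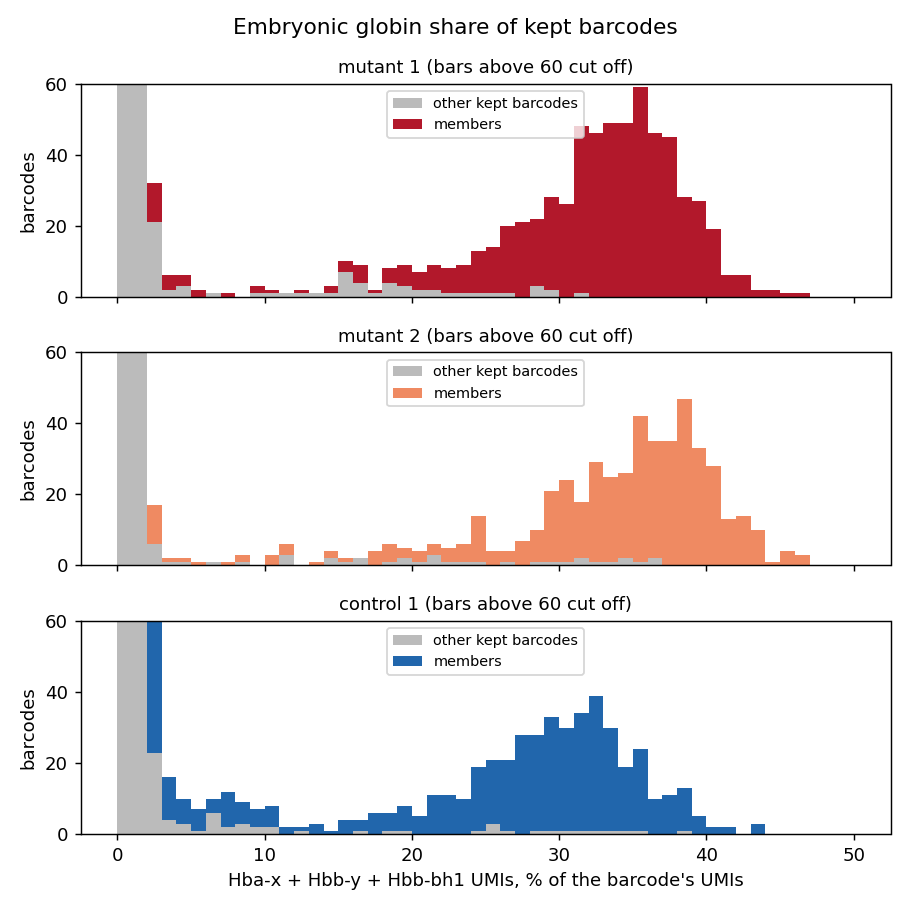
Number of kept barcodes (vertical axis, bars above 60 cut off) by the share of embryonic globin UMIs in percent (horizontal axis), with members in colour and other kept barcodes in grey, for mutant 1, mutant 2 and the control from top to bottom. Most members lie between 20 and 40%, and the control has a second heap just above 2%, where its 56 members below 5% fall.

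Members made up 17.4% of kept barcodes in mutant 1 (exact 95% interval 16.2 to 18.7, 642 of 3686), 10.1% in mutant 2 (9.29 to 11.0, 487 of 4806) and 12.7% in the control (11.7 to 13.8, 520 of 4089). The control lay between the mutant libraries. The intervals cover counting error only. At least 2% globin with too many endothelial or mesenchymal UMIs was found in a further 67, 41 and 64 barcodes, which the rule left out. Scrublet called 14, 10 and 10 members doublets. Members of different libraries shared at most 1 barcode sequence per pair of libraries.

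Embryonic globins dominated the cells. Hbb-y took 15.7 and 17.2% of all UMIs in mutant members, and 13.6% in control members. Hba-x took 13.0 and 13.3% in the mutants, against 11.8% in the control. Hbb-bh1 took 5.00 and 4.92%, against 4.40%. Both mutant libraries lay above the control for each of the 3 genes, which the rule itself used. The adult alpha genes were abundant: Hba-a1 took 3.53 and 3.61% in the mutants and 3.75% in the control, and Hba-a2 took 1.95 and 2.09%, against 2.21%. The adult beta genes were far lower. Hbb-bs stood at 1225 and 1385 CPM in the mutants, against 1738 CPM in the control, and Hbb-bt at 675 and 863 CPM, against 693 CPM. Hbb-bs was thus lower in both mutant libraries, while the control's Hbb-bt lay between them. Hbq1b, a theta-like gene, ranged from 62.7 to 67.9 CPM, Hbb-bh2, another beta-like gene, from 6.63 to 7.81 CPM, and Hbq1a from 0.923 to 1.21 CPM.

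**Figure D2:**
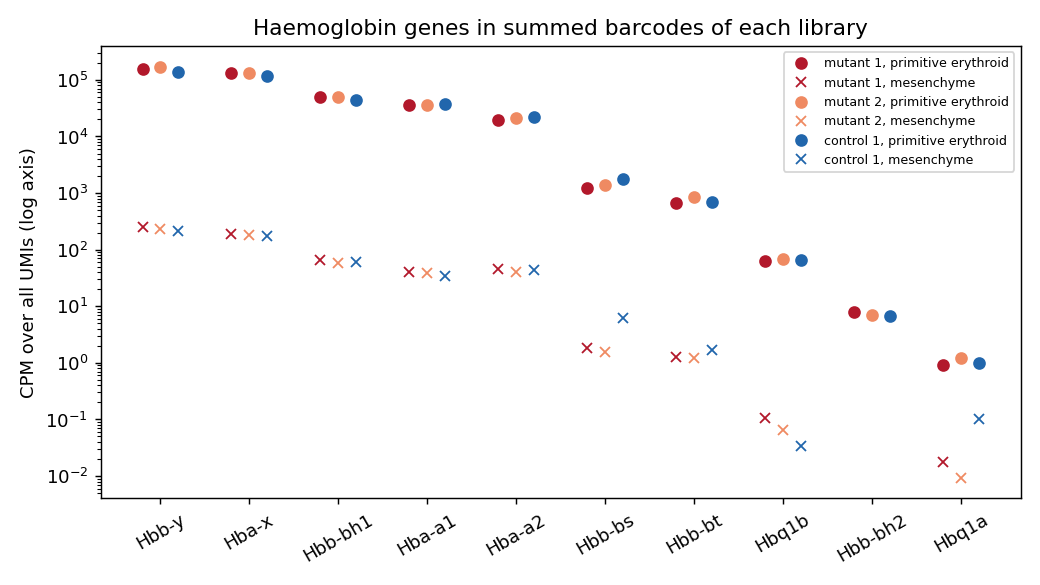
Level of each haemoglobin gene in CPM over all UMIs (log axis), summed over members (circles) and over mesenchyme barcodes (crosses) of mutant 1, mutant 2 and the control, from left to right at each gene. Levels in members span from about 1 CPM for Hbq1a to 172494 CPM for Hbb-y in mutant 2, and Hbb-bs is lowest in mutant 1 and highest in the control.

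The 3 globin ratios chosen to describe maturation did not move together between the libraries. Whether any of them follows maturation in these cells was not tested. The ratio of Hbb-bs and Hbb-bt to Hbb-y and Hbb-bh1 was 0.916% in mutant 1 and 1.01% in mutant 2, and 1.35% in the control. The mean of the mutants was 0.965% ± 0.0696 (SD, n = 2), 0.382 points below the single control library. The ratio of Hba-a1 and Hba-a2 to Hba-x was 42.2 and 42.8% in the mutants, and 50.3% in the control, a difference of -7.81 points between the mutant mean of 42.5% ± 0.396 (SD, n = 2) and the control. The share of Hbb-y in Hbb-y and Hbb-bh1 was 75.9 and 77.8% in the mutants, and 75.6% in the control. For the first 2 ratios the gap exceeded the difference between the mutant libraries, and for the third it did not. An exact permutation test of 2 libraries against 1 cannot give a p under 0.333, so that test cannot call any of these differences.

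The alpha ratio was lower in the mutants in every depth class, and the beta ratio of mutant 2 differed between Xist-only and Y-only cells. Among members of over 100000 UMIs the alpha ratio was 41.0 and 40.2% in the mutants, against 48.6% in the control, and among those of 10000 to 50000 UMIs it was 46.7 and 47.3%, against 58.5%. Deep members (at least 10000 UMIs) were then divided by the genes Xist and, on the Y chromosome, Ddx3y, Eif2s3y, Kdm5d and Uty. The design text gives each pool male and female embryos. Members with Xist alone numbered 39 of 603, 74 of 445 and 110 of 392 in mutant 1, mutant 2 and the control, and those with Y-linked UMIs alone 518, 324 and 249. In the Xist-only members the beta ratio was 0.898 and 1.38% in the mutants, and 1.40% in the control, so mutant 2 lay by the control. In the Y-only members it was 0.905 and 0.950% in the mutants, and 1.31% in the control. The alpha ratio kept the mutants below the control in both subsets, at 39.1 and 38.1% against 51.3% in Xist-only members and 42.4 and 44.0% against 50.0% in Y-only members. The Hbb-y share went opposite ways between the subsets: it was 71.5% in Xist-only and 79.2% in Y-only members of mutant 2, and 78.6% in Xist-only and 74.2% in Y-only members of the control. Within mutant 2 and within the control, the subsets were farther apart in the Hbb-y share than the libraries were.

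Single cells differed far more in Hbb-bs and Hbb-bt than libraries did. Among deep members with at least 20 UMIs of the pair, Hbb-bs made up at least 90% of the pair in 143 of 483 cells of mutant 1, 103 of 370 of mutant 2 and 119 of 362 of the control, and at most 10% in 48, 45 and 15. The SD over cells was 32.5, 33.0 and 29.2 points, against 5.83, 5.80 and 4.80 points that binomial counting at each cell's UMIs gives. The adult alpha pair behaved otherwise. Hba-a1 made up a median of 64.3, 63.3 and 63.1% of Hba-a1 and Hba-a2, with SDs of 2.86, 3.45 and 3.33 points, also above their counting SDs of 0.966, 1.10 and 0.804 points. Per embryonic beta UMI, Hbb-bs and Hbb-bt varied across cells with Spearman rho of -0.19, -0.13 and -0.03 in mutant 1, mutant 2 and the control, while Hba-a1 and Hba-a2 varied together with rho of 0.63, 0.68 and 0.65. These correlations are over cells of 1 library, and they share each cell's embryonic beta count as denominator. The wide Hbb-bs spread was found within Y-only members (SD 32.5, 33.1 and 29.6 points) and within Xist-only members (29.4, 33.4 and 29.2 points). The 3' ends of both pairs are alike: 55.5% of 60-base words in the last 500 bases of Hbb-bs transcripts and 63.7% of those of Hbb-bt occur in another gene, and 89.1 and 86.2% of those of Hba-a1 and Hba-a2, so the split within a pair rests on the counting software's unique reads and is uncertain, and their sums are firmer.

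**Figure D3:**
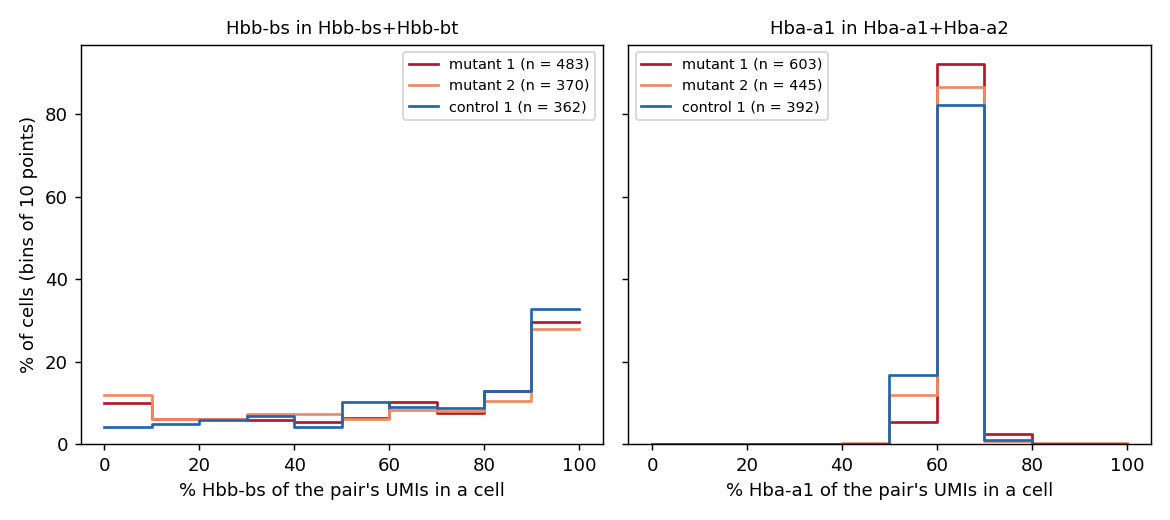
Share of deep members (vertical axis, percent of cells) by the percent of Hbb-bs in Hbb-bs and Hbb-bt (left) and of Hba-a1 in Hba-a1 and Hba-a2 (right) in bins of 10 points, for mutant 1, mutant 2 and the control. The beta pair spreads over the whole axis with the highest bin at 90% and above in each library, and the alpha pair gathers between 50 and 70%.

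Mki67 and Top2a were detected in most deep members of every library. At 10000 UMIs, Mki67, a marker of proliferating cells, was detected in 93.0 and 92.8% of mutant members and 91.6% of control members, and Top2a, the mitotic topoisomerase, in 81.8 and 76.9% against 77.0%. The sum of 43 S phase genes was 2226 and 2153 CPM in the mutants and 2522 CPM in the control, and that of 54 G2/M genes 5551 and 5613 CPM against 6030 CPM. Within a library, cells with more S phase UMIs had fewer G2/M UMIs, with Spearman rho of -0.36, -0.38 and -0.31. A member held a median of 23, 22 and 25 S phase UMIs in mutant 1, mutant 2 and the control at this depth, and 52, 52 and 55 G2/M UMIs, both below the medians of mesenchyme, which were 46, 50 and 48 S phase UMIs and 83, 92 and 86 G2/M UMIs. Embryonic globins took 33.7, 35.5 and 29.9% of members' UMIs, and every other gene's share is of the same total.

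Pcna, the sliding clamp of replication, stood at 51.3 and 61.5 CPM in mutant members and 86.0 CPM in control members. It was detected at 10000 UMIs in 39.6% (exact 95% interval 35.7 to 43.7) and 42.0% (37.4 to 46.8) of mutant members, and in 54.8% (49.8 to 59.8) of control members. Its fitted log2 fold was -0.49 with a standard error of 0.17 and an adjusted p of 0.999 in edgeR's quasi-likelihood test. Pcna was also lower in mutant mesenchyme (82.9 and 96.9 CPM, against 133 CPM) and mutant endothelium (62.5 and 63.1 CPM, against 98.6 CPM), so both mutant libraries lay below the control in all 3 cell classes. Of 60-base words of its 3' end, 19.6% occur in another gene.

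No gene passed the test of mutant against control in members. Summed counts of each library were compared with edgeR's quasi-likelihood test over 7290 genes of at least 5 CPM on average, and 0 were called at an adjusted p under 0.05 (0% of those tested), with 188 genes at an unadjusted p under 0.05. DESeq2 on the same sums called 44 genes (0.604% of those tested), 17 higher and 27 lower. The residual spread rests on the 2 mutant libraries, with 1 residual degree of freedom.

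The erythroid gene groups showed small differences in both directions. Of 19 tested genes of haem synthesis none was called, with a median log2 fold of -0.11 against -0.01 over all tested genes. Of 22 genes of the membrane skeleton and blood groups none was called, with a median of -0.02. The same held for 14 iron genes (median -0.0040), 18 erythroid transcription factors (0.02), 10 genes of erythropoietin signalling (0.01) and 19 of late maturation (-0.07). The 43 S phase genes had a median of -0.09, with 10 of them above 0, and the 51 tested G2/M genes a median of -0.01. Slc4a1 had a log2 fold of -0.25 ± 0.13 (SE) and Tfrc, the transferrin receptor, of 0.11 ± 0.09, each with an adjusted p of 0.999 in edgeR's quasi-likelihood test. Bcl2l1, the survival factor Bcl-xL of late erythroid cells, stood at 24.3 and 27.9 CPM in the mutants and 21.7 CPM in the control (log2 fold 0.38 ± 0.17, adjusted p 0.999 in the same test). Hbb-y had a log2 fold of 0.39 ± 0.17 and Hbb-bs of -0.30 ± 0.13. Another scaling mattered at this size: the median gene moved by -0.126 on the log2 scale under total UMIs and by -0.0128 under the TMM scaling used in the fit.

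Some genes that DESeq2 alone called were looked at after their values were known, among those with its lowest adjusted p. Hist1h2ap, a histone gene, stood at 175 and 149 CPM in mutant members and 524 CPM in control members, and Rpl27 at 649 and 644 CPM against 1043 CPM. The same genes were lower in both mutants in mesenchyme too, where Hist1h2ap stood at 180 and 199 CPM in the mutants and 452 CPM in the control, and Rpl27 at 517 and 669 CPM against 957 CPM. Their 3' ends are shared with other genes for 92.9 and 30.8% of 60-base words, so the counts of both genes are uncertain. Fabp5, a fatty acid binding protein, stood at 496 and 482 CPM in mutant members and 368 CPM in control members, and at 586 and 698 CPM against 635 CPM in mesenchyme. Mir142hg, the host transcript of a blood-cell microRNA, stood at 101 and 94.1 CPM in mutant members and 59.99 CPM in control members, and under 0.9 CPM in mesenchyme and endothelium. Genes abundant in mesenchyme were among the higher ones: Hmga2 stood at 16.3 and 15.9 CPM in mutant members, against 6.26 CPM in the control, and at 996 to 1147 CPM in mesenchyme. The 12 limb mesenchyme markers, none of them at 0, summed to 27.9 and 27.2 CPM in mutant members and 14.5 CPM in control members, and their part in such differences was not tested.

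The targeted gene and the Cre feature were looked at in every library. Esco2 stood at 24.1 and 27.1 CPM in mutant members and 28.1 CPM in control members, with a log2 fold of -0.02 ± 0.15, while in mesenchyme it stood at 22.7 and 21.4 CPM against 31.4 CPM. A 3' count does not show whether the floxed part is lost. The Cre feature had 1 UMI in all mutant 1 members and 0 in mutant 2 and control members, against 1.18 and 1.23 CPM in mutant mesenchyme and 0 CPM in control mesenchyme. Of 18 tested cohesin genes none was called in members, with a median log2 fold of -0.02.

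The mutant effect on 6 p53 target genes differed between members and mesenchyme. Cdkn1a, the p21 cell cycle inhibitor, stood at 1.49 and 6.54 CPM in mutant members and 7.23 CPM in control members, whereas it stood at 53.9 and 58.6 CPM in mutant mesenchyme and 1.58 CPM in control mesenchyme. Unthinned, Cdkn1a had a UMI in 34 of 642 members of mutant 1, 36 of 487 of mutant 2 and 29 of 520 of the control. Its level in members, and its fold there, thus rested on few cells. Ccng1, cyclin G1, stood at 12.8 and 17.3 CPM in mutant members against 19.4 CPM in the control, and at 39.1 and 37.4 CPM against 7.36 CPM in mesenchyme. Btg2, an antiproliferative target, stood at 33.6 and 39.3 CPM in mutant members against 44.9 CPM, and at 15.8 and 14.7 CPM against 2.75 CPM in mesenchyme. For all 3 genes the mutant libraries were above the control in mesenchyme. In members both were below it per total UMIs, and on the TMM scale mutant 2 lay just above it, at log2 folds of 0.064, 0.047 and 0.018. Mdm2, the ligase that degrades p53, stood at 20.9 and 22.5 CPM in mutant members against 29.2 CPM, and at 84.0 and 76.8 CPM against 43.5 CPM in mesenchyme. Trp53 itself stood at 63.3 and 70.7 CPM in mutant members and 64.4 CPM in control members.

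The difference between the cell classes was tested in 1 edgeR quasi-likelihood model with the library as a block. It had 1 residual degree of freedom. The spread of each gene was drawn from a trend over all genes (infinite prior degrees of freedom), and not from that gene's own libraries. Over 9548 genes of at least 5 CPM on average over both classes, 241 were called (2.52% of those tested), 174 with a higher (1.82%) and 67 with a lower (0.702%) mutant effect in members than in mesenchyme. Many of these genes passed that filter through 1 class alone, and Twist1 was used by the rule, so the genes are described over those with at least 5 CPM on average in each class, an alternative chosen after seeing the data. There 55 of 6982 genes were called (0.788%), 23 higher and 32 lower (0.458%), and 54 of the 55 were among the 241. Of 16 p53 targets at that level, 6 were called, all lower, with a median log2 difference of -0.52 against 0.03 over all these genes. The mean behind this filter was taken over all 3 libraries of a class. Cdkn1a and Btg2 thus passed it in mesenchyme through the mutant libraries, with control mesenchyme under 5 CPM. Genes admitted that way lean to a lower difference, so the count of 6 and the median are given as descriptions. The differences were -6.02 ± 0.28 (SE) for Cdkn1a, -2.60 ± 0.24 for Btg2, -2.59 ± 0.22 for Ccng1, -1.72 ± 0.27 for Sesn2, a stress-induced sestrin, -1.14 ± 0.21 for Mdm2 and -0.88 ± 0.23 for Polk, a DNA polymerase of lesion bypass. Within members the median of the 16 targets moved by -0.03 in mutant 1 and 0.06 in mutant 2, and within mesenchyme by 0.45 and 0.65, all on the log2 scale. DESeq2 called 64 of 9548 genes (0.67%), and the fit at 10000 UMIs per barcode 21 of 9668 (0.217%). The fit without doublets called 127 of 9539, and the fit without a filter on low counts 0 of 25006. Over genes of at least 5 CPM in each class, 14 were immediate early and dissociation genes, which respond to cell handling. Of these, 3 were called lower and none higher. Their median log2 difference was -0.55, so a median of that size was not particular to p53 targets. Of 43 S phase and 18 cohesin genes none was called in this comparison. The change in mesenchyme was known from earlier results of these data and is given beside the members' values.

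**Figure D4:**
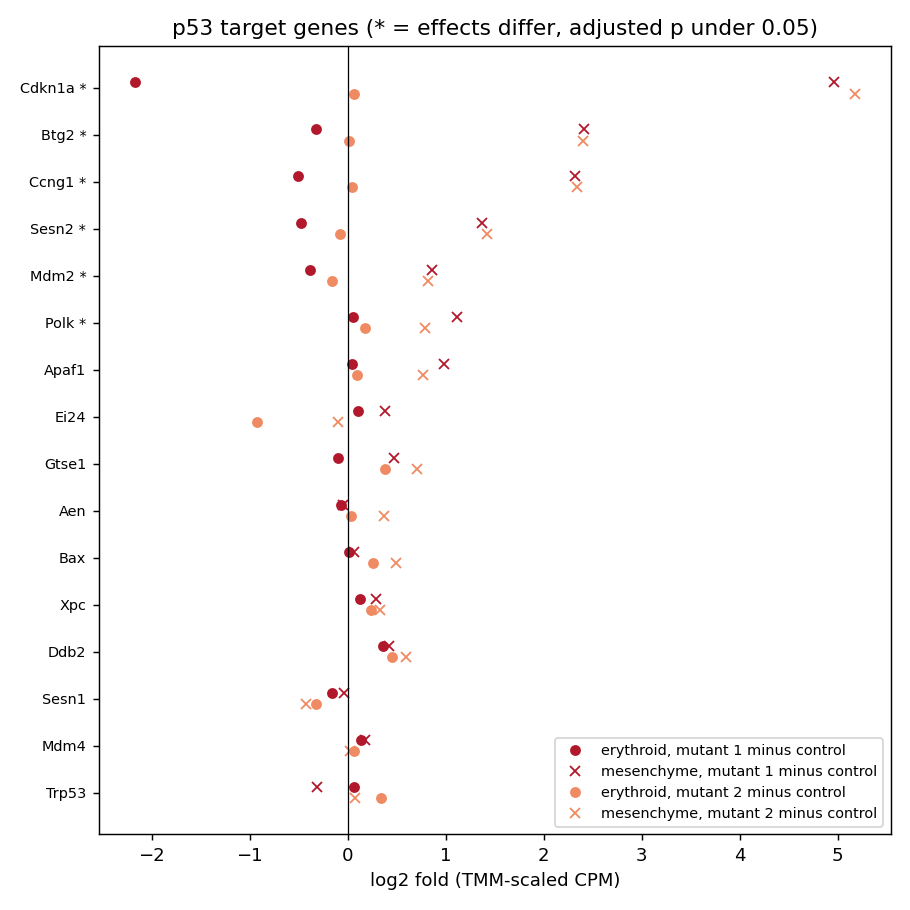
Log2 fold of mutant over control (horizontal axis, TMM-scaled CPM) for the 16 p53 target genes of at least 5 CPM on average in each class, in members (circles) and mesenchyme (crosses), each mutant library in its own colour, with asterisks at the 6 genes whose effects differed. Circles of the 6 marked genes lie below 0.18 and crosses reach 5.17 for Cdkn1a in mutant 2.

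Xist, a called gene with a higher mutant effect in members, stood at 24.6 and 67.4 CPM in mutant members and 101 CPM in control members, and at 13.6 and 7.41 CPM against 153 CPM in mesenchyme. Xist-only cells made up 6.47, 16.6 and 28.1% of deep members and 1.72, 0.825 and 11.9% of deep mesenchyme barcodes in mutant 1, mutant 2 and the control. Y-only cells made up 94.9, 92.5 and 71.6% of deep mesenchyme barcodes in the same order. In both classes the mutant libraries thus had lower Xist-only shares than the control, so sex and genotype were not balanced. Hbb-bs stood at 1.82 and 1.56 CPM in mutant mesenchyme and 6.08 CPM in control mesenchyme, with Hba-x at 185, 179 and 174 CPM in the same barcodes, and at that level its mutant effect was not compared between the classes. Twist1 stood at 2.41 and 2.42 CPM in mutant members and 0.923 CPM in control members, in a range set by the rule.

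To describe maturation inside each library, members were divided into terciles of a globin ratio. The top tercile was compared with the bottom tercile over the 3 libraries as blocks, with haemoglobin genes left out. Terciles held 214, 162 and 173 cells in mutant 1, mutant 2 and the control. The beta ratio, which was set as the main measure, separated almost nothing. From the top to the bottom tercile it was 1.97 and 0.186% in mutant 1, 2.27 and 0.202% in mutant 2, and 3.70 and 0.330% in the control, yet 1 gene of 8216 was called (0.0122%). It was Frmd5, a FERM domain gene, at 18.0, 21.2 and 28.2 CPM in the top terciles of mutant 1, mutant 2 and the control, against 10.9, 10.1 and 15.1 CPM in the bottom terciles (log2 fold 0.87 ± 0.12, adjusted p 0.0102 in edgeR's quasi-likelihood test). DESeq2 called 0 genes, and edgeR called 54 without mutant 1, 0 without mutant 2 and 24 without the control. Cells were ordered after 1 UMI was added to both counts of the ratio, which raises the ratio of cells with few UMIs. The control's top tercile held 93 members under 10000 UMIs, and its median depth was 1567 UMIs, against 90332 UMIs in its bottom tercile. The control's division thus went with depth. Among members of at least 10000 UMIs 1 gene was called, another than Frmd5.

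The alpha ratio ordered the cells along a broad difference. The top tercile had an alpha ratio of 50.5, 52.9 and 62.6% in mutant 1, mutant 2 and the control, and the bottom tercile of 37.0, 36.3 and 41.8%. Of 8243 genes 2104 were called (25.5%), 1036 higher (12.6%) and 1068 lower (13%) in the top tercile. Of genes of the red cell membrane 13 of 23 tested were called higher and none lower. Rhd, a Rhesus protein, stood at 223, 271 and 241 CPM in the top terciles of mutant 1, mutant 2 and the control and at 157, 165 and 122 CPM in the bottom terciles in TMM-scaled CPM without haemoglobin genes, the scale of all tercile levels here (log2 fold 0.73 ± 0.07, adjusted p 2.28e-06 in edgeR's test). For this gene, picked among the called ones, the top terciles did not overlap the bottom ones. The share of all tested genes without overlap is not given. Kel, the Kell blood group protein, rose by a log2 fold of 0.53, Ank1, ankyrin, by 0.37, Sptb, beta spectrin, by 0.28 and Slc4a1 by 0.21. Of erythropoietin signalling and survival genes 7 of 13 were called higher and none lower, among them Epor (0.31 ± 0.05, adjusted p 0.000598 in edgeR's test) and Jak2, its kinase (0.38 ± 0.08, adjusted p 0.00284). Iron genes were split, with 4 of 14 called higher and 4 lower, and Slc40a1, the iron exporter ferroportin, rose by 0.93. E2f2, a transcription factor of the cell cycle, rose by 0.55.

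Ribosomal protein genes fell in the top terciles. Of 83 ribosomal protein genes 70 were called lower and none higher, with a median log2 fold of -0.11, while DESeq2 called 33 and the fit in Y-only members 39 of the 83 lower. Npm1, a nucleolar protein of ribosome assembly, stood at 2427, 2252 and 2164 CPM in the top terciles of mutant 1, mutant 2 and the control, against 3301, 3203 and 3479 CPM in the bottom terciles (log2 fold -0.55 ± 0.04, adjusted p 3.11e-08 in edgeR's test). Glycolysis and hypoxia genes were called lower in 10 of 24 and higher in 1, with Pkm, pyruvate kinase, at -0.56. Among G2/M genes 19 of 51 were called lower and 1 higher, with Cks1b, a cyclin-dependent kinase subunit, at -0.40. The S phase list was mixed, with 6 called higher and 3 lower of 43. Antioxidant genes were called lower in 6 of 17 and higher in none, with Prdx1, a peroxiredoxin, at -0.27. Haem synthesis genes were called higher in 5 of 20 and lower in 1, a share near that over all genes.

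Depth and RNA class moved with the alpha ratio. Top terciles had medians of 36385.5, 31728.5 and 42590 UMIs, against 78694, 68110.5 and 97209 UMIs in the bottom terciles, and median mitochondrial shares of 2.32, 1.96 and 2.11%, against 1.44, 1.38 and 1.49%. All 13 mitochondrial genes were called higher, with a median log2 fold of 0.45, and the nuclear RNA Malat1 rose by 0.53. Of 17 immediate early and dissociation genes, which respond to cell handling, 8 were called higher and 1 lower, with a median log2 fold of 0.27. The rise with the lowest p was that of Gm42418 (1.85 ± 0.05, adjusted p 6.45e-13 in edgeR's test), a locus on chromosome 17 that AY036118 overlaps on the other strand and that is known to collect ribosomal RNA reads. In cells of at least 10000 UMIs thinned to 10000, 779 genes were called (9.4%), 679 of them among the 2104, with 10 of 22 membrane genes and 4 of 12 erythropoietin signalling genes higher, 76 of 83 ribosomal protein genes and 10 of 52 G2/M genes lower, and 13 of 13 mitochondrial genes higher. At that depth 2 haem synthesis genes were called higher and 3 lower of 19, with a median log2 fold of -0.02 against 0.06 before thinning, and 1 immediate early or dissociation gene was called higher and 1 lower. DESeq2 called 630 (7.64%), all among the 2104. The part of depth, of the mitochondrial share and of the handling genes in the membrane, erythropoietin and ribosomal differences was not tested.

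The Hbb-y share gave a shorter list. In mutant 2 and the control this share also differed between Xist-only and Y-only members, in opposite directions, as given above. Terciles of all members were not matched for sex, and a fit in Y-only members is given below. Top terciles had a share of 80.3, 81.6 and 80.8% in mutant 1, mutant 2 and the control, and bottom terciles of 70.8, 73.2 and 68.2%. Of 8241 genes 87 were called (1.06%), 44 higher (0.534%) and 43 lower (0.522%). Rhd rose again, by 0.73 ± 0.09 (adjusted p 0.00339 in edgeR's test), with Epor at 0.39 and Urod, uroporphyrinogen decarboxylase of haem synthesis, at 0.42. Acp5, tartrate-resistant acid phosphatase, stood at 425, 477 and 468 CPM in the top terciles and 326, 369 and 304 CPM in the bottom terciles. Among lower genes, Hist1h1b, a linker histone of replicating cells, stood at 311, 268 and 393 CPM in the top terciles and 438, 390 and 623 CPM in the bottom terciles, and Runx1 at 21.7, 17.8 and 23.2 CPM against 40.5, 44.5 and 34.0 CPM. The tercile ranges of the 3 libraries did not overlap for Rhd, Acp5 and Runx1, and for Hist1h1b they did. These genes were picked among the called ones, and the share of all tested genes without overlap is not given. Of 20 haem synthesis genes 2 were called higher, and of 24 glycolysis and hypoxia genes 2 lower. Without mutant 2 the count of called genes was 7, in Y-only members 32 and with DESeq2 50 (0.607%). Without mutant 1 it was 186, and without the control 229. Of the 78 genes called at 10000 UMIs per cell (0.939%), 30 were among the 87.

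**Figure D5:**
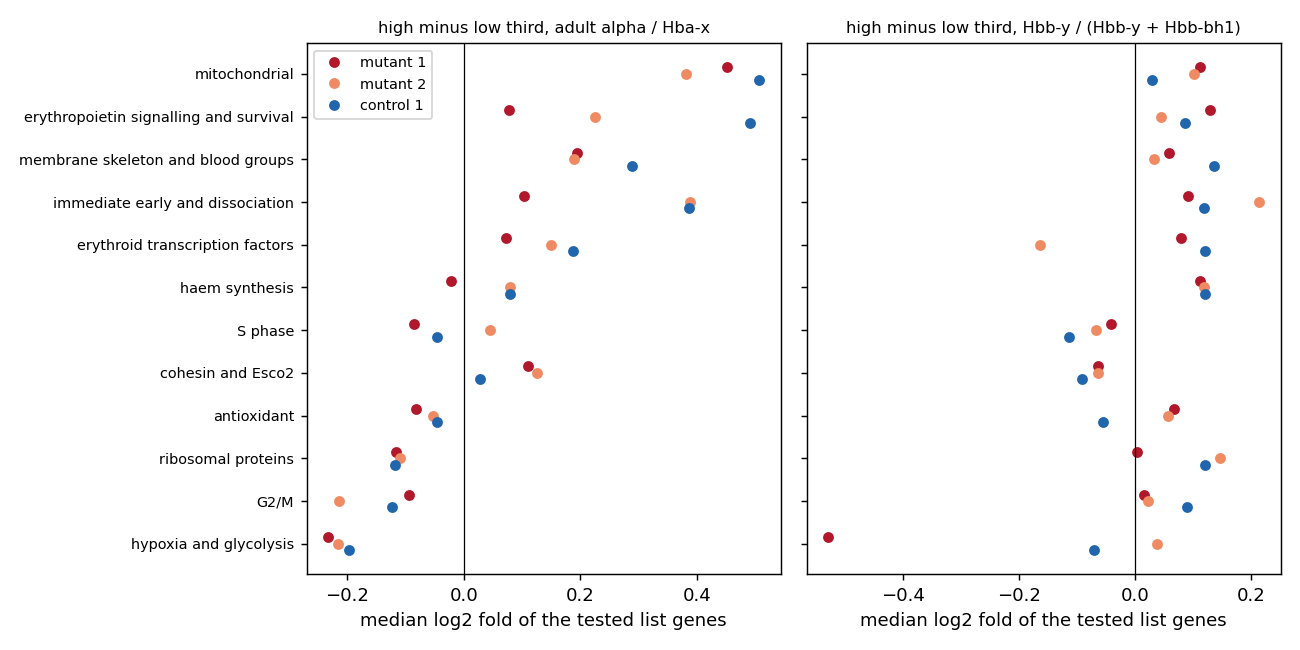
Median log2 fold, top minus bottom tercile, of the tested genes of 12 lists (horizontal axis) for the alpha ratio (left) and the Hbb-y share (right), 1 point for mutant 1, mutant 2 and the control each. On the left the membrane list lies above 0 and the ribosomal protein list below 0 in each library, and on the right the ribosomal protein points lie at or above 0.

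The beta ratio was nearly unrelated to the other ratios from cell to cell. At 10000 UMIs the beta ratio had a Spearman rho of 0.06, 0.02 and 0.06 with the alpha ratio in mutant 1, mutant 2 and the control, and of 0.01, -0.04 and 0.03 with the Hbb-y share, while the alpha ratio and the Hbb-y share had rho of 0.19, 0.36 and 0.25. The alpha ratio had rho of -0.42, -0.39 and -0.37 with the UMI total before thinning, and the beta ratio of 0.07, -0.05 and -0.03. The members of a pair of ratios are counts of 1 cell, and rho is given as a description.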

How the data were processed

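Gene-by-barcode UMI counts of 3 libraries made with 10x 3' chemistry were used as deposited by the authors. Cell Ranger 7.0.0 made them, per the file headers, and the submitters' processing notes also list Seurat 4.0.0 and the build mm10. No label or header read here names the cell calling step. Members held 42256184 and 27227301 UMIs in the mutant libraries and 40105170 in the control. Their counts were summed per library and fitted with edgeR 4.0.16 (quasi-likelihood test, TMM scaling, genes of at least 5 CPM on average, Benjamini-Hochberg adjustment, called under 0.05), in R 4.3.3; DESeq2 1.42.0 was an alternative. Terciles and cell classes were fitted with library as a term, and the terciles without haemoglobin genes. The fits of mutant against control, of the beta ratio and of the cell classes were also run on simulated counts. These had the same spread for all genes and large effects, unlike these data. The alpha ratio and Hbb-y share fits were not run on simulated counts. Each library pooled embryos, and p-values measure at most the spread between these libraries. In edgeR's fits that spread was taken in part or in whole from all genes together. The members, lists and ratios were chosen with earlier results of these data known; the alpha ratio and Hbb-y share fits were added in place of the beta ratio as alternatives. Genes named were the haemoglobin and rule genes and a fixed set of erythroid, cycle and p53 genes, the 10 called genes of lowest p in each direction of each fit, and called or abundant list members; others are said to be chosen after their values were seen, and Btg2 and Trp53 are list members. For shares of cells, barcodes of at least 10000 UMIs were thinned to 10000. Doublets called by Scrublet were kept, and left out in an alternative. Gene positions came from GENCODE vM21 and promoters from RefSeq. Intervals are exact binomial (95%). Some genes that the naming rule or the fits selected are not reported here.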

Additional observations from a re-analysis of the deposited data

Results flagged for a closer look

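For 13 named genes of at least 5 CPM on average in each class, none of them used by the rule, the mutant effect in primitive erythroid cells differed from that in mesenchyme of the same libraries by the test of the difference itself (edgeR's quasi-likelihood test, adjusted p under 0.05 both over all tested genes and over genes at that level in each class). Values are log2 differences from the test over all tested genes, erythroid minus mesenchyme effect, in 2 mutant libraries against 1 control library. The level in each class was a mean over all 3 libraries, so Cdkn1a and Btg2 reached it in mesenchyme through the mutant libraries. Among p53 targets the difference was -6.00 for Cdkn1a, -2.57 for Ccng1 and for Btg2, -1.69 for Sesn2, -1.12 for Mdm2 and -0.86 for Polk. Other genes with a lower effect in erythroid cells were Tbc1d8 at -1.69, Fos at -1.59, Rb1 at -1.11 and Egr1 at -0.93.

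A higher effect in erythroid cells was found for Xist at 2.85, Gm10036 at 2.3 and Podxl at 1.96. Xist marks female cells, whose share differed between the cell classes and libraries. Without a filter on low counts the test called 0 genes.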

How the results depend on the processing

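No paired analysis was possible because the control library carries no replicate number and only 1 control library was analysed. Mutant against control gave 0 called genes under each edgeR alternative run and 44 with DESeq2; leaving out a library could not be fitted there or in the comparison with mesenchyme, for lack of residual degrees of freedom. For the beta ratio, against 1 gene as reported, 2 were called with RLE size factors, 0 with DESeq2, 10 at 1 CPM, 0 without a filter on low counts, 6 with haemoglobin genes kept, 3 at 5% globin, 2 under 5% mitochondrial UMIs, 3 without doublets, 10 at 10000 UMIs per cell, 12 in Y-only members, 4 for a division at the median, and 0 to 54 without 1 library. Divided by the Hbb-y share 87 were called and by the alpha ratio 2104. The alpha ratio fit called 630 with DESeq2, 779 at 10000 UMIs per cell, 1220 in Y-only members and 1508 to 1791 without 1 library. The Hbb-y share fit called 50 with DESeq2, 134 without doublets, 32 in Y-only members and 7 to 229 without 1 library. The comparison with mesenchyme called 64 with DESeq2, 0 without a filter, 127 without doublets, 21 at 10000 UMIs per barcode and 55 among genes of at least 5 CPM in each class, against 241. At 10000 UMIs per cell the mutant minus control difference was -8.58 points for the alpha ratio, against -7.81, and -278 CPM for the G2/M sum, against -448. The causes were not tested. For 78 named genes in mutant against control, 468 alternative folds were taken, of which 39 changed sign. Those that left out 1 mutant library had no test, and among the others 1 was called (Hbb-bh1, DESeq2). The 78 leave out Hist1h2ap, Rpl27, Fabp5, Mir142hg and Hmga2, which DESeq2 called and which were named after their values were seen. The analysis of members of at least 10000 UMIs, the filter in each class, and all alternatives of the alpha ratio and Hbb-y share fits, were chosen after seeing the data. With 1 control library, no spread among controls could be measured.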

Other observations

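Barcodes led by adult beta globin lay outside the erythroid members. At least 20% Hbb-bs and Hbb-bt UMIs were found in 5 barcodes of mutant 1, 2 of mutant 2 and 71 of the control, with medians of 437, 408.5 and 298 genes and 4555, 4795.5 and 7030 UMIs. Adult beta globin made up a median of 54.7, 55.3 and 54.8% of their UMIs, and embryonic globins a median of 0.198, 0.192 and 0.128%. Of these barcodes 2, 0 and 6 passed the gene and mitochondrial limits, and none was a member. In mesenchyme of the same libraries the ratio of adult to embryonic beta UMIs was 0.986 and 0.954% in the mutants and 2.83% in the control.

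The platelet gene Pf4 was found in few members, and the other platelet markers were not counted per cell. The 12 megakaryocyte and platelet markers summed to 12.5 and 37.7 CPM in mutant members and 16.4 CPM in control members. Itga2b, given above with the progenitor genes, is among these markers and made up most of the sum in mutant 1 and the control. Pf4, a platelet chemokine, was seen in 12 members of mutant 1 and 5 of mutant 2.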
